A study of Acomys cahirinus and Mus musculus with 6 samples.

Results

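B cells were the 223 cells that the authors' annotation names so among 39577 cells from healing ear punch wounds. They made up the whole of 1 of the study's 47 clusters, and no cell of that cluster had another name. Of the 6 libraries, 4 came from the spiny mouse (Acomys cahirinus, strain given as wild-type), a rodent known for regrowing punched ear tissue. Spiny mice received the vehicle DMSO, an ErbB2 inhibitor, an FGFR1/2/3 inhibitor or an ERK inhibitor by injection from day 12 to day 15. The other two libraries came from CD1 laboratory mice, whose ears had received beads on day 10 that carried PBS alone or FGF2 together with NRG1. FGF2 acts on FGF receptors and NRG1 on ErbB receptors, and both feed the kinase cascade that ends in ERK. Each group was 1 library, so nothing was tested, and every interval printed is a 95% one that covers counting error only. The 2 inhibitor comparisons share the DMSO library. How many animals went into a library is not stated in the labels. Spiny mouse reads stand under mouse gene names, and no ratio across species was taken.

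A B cell recognises antigen through a membrane immunoglobulin built from heavy and light chains, held with the signalling partners Cd79a and Cd79b. Light chains are of the kappa or the lambda type, and a mature B cell normally keeps one. B cells also take up antigen and show it to T cells on MHC class II, which Cd74 chaperones. They are plentiful in blood and lymphoid organs and scarce in normal skin.

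The annotated cells were described by 4 defining genes, placed here in GRCm38 with GENCODE vM21. The cells were clustered on such genes, so finding them describes the annotation and is no test of it. The genes were Cd79a (chromosome 7, 24897381 to 24902197), Cd79b (chromosome 11, 106311341 to 106314762), Ms4a1 (chromosome 19, 11249675 to 11266241) and Ighm (chromosome 12, 113418558 to 113422730). Ms4a1 encodes the surface protein CD20 and Ighm the IgM heavy chain. At least 1 UMI of these genes, that is 1 tagged transcript molecule, was found in 80 of 91 cells with DMSO. The same held for all 28 cells with the ErbB2 inhibitor, all 59 with the FGFR inhibitor and all 3 with the ERK inhibitor. In the mouse it held for all 14 cells with PBS beads and 27 of 28 with FGF2/NRG1 beads. In all, 11 DMSO cells carried none of them. Ighm had 0 UMIs in every spiny mouse cell of any type, so there it could not serve as a marker. Counted over all spiny mouse cells, 78.4% of Cd79b UMIs, 77.2% of Ms4a1 UMIs and 75% of the UMIs of Pax5, the factor that holds the B lineage, lay in the annotated B cells. Cd79a was less exclusive there, with 41.7% of its UMIs in B cells against 91.3% in the mouse.

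The B cells were shallow and few. Their UMIs summed to 127185 with DMSO, 32600 with the ErbB2 inhibitor, 72947 with the FGFR inhibitor and 7102 with the ERK inhibitor, and to 38420 and 56963 with PBS and FGF2/NRG1 beads. Median UMIs per B cell were 1124 to 1235 in the 3 larger spiny mouse libraries, 2111 with the ERK inhibitor, 2649.5 with PBS beads and 1932 with FGF2/NRG1 beads, where all cells of a library had medians of 3125 to 6915. No cell of any library had fewer than 501 genes. Under 600 genes were found in 35.2% of B cells with DMSO, 25% with the ErbB2 inhibitor and 40.7% with the FGFR inhibitor, against 8.59% to 9.74% of the other cells in those libraries. Of all cell barcodes, 368 cells had one that occurs in more than 1 library, and 2 B cells were among them, neither matching a B cell elsewhere.

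Keratinocyte transcripts were present in every library's B cells, at levels that differed between libraries. The 12 keratinocyte markers (Krt10, Krt5, Krtdap and others) made up 6.06% of B cell UMIs with DMSO, 5.76% with the ErbB2 inhibitor, 3.24% with the FGFR inhibitor and 0.394% with the ERK inhibitor. In the mouse they were 0.502% and 0.402%. Per cell the share ran from 2.17% to 10.8% with DMSO and from 1.02% to 9.03% with the FGFR inhibitor, so no DMSO B cell was without them. T cells of the same libraries showed the same order, with 4.47%, 2.87%, 1.5% and 0.212%. If all of these transcripts came with a profile like that of the library's other cells, that profile would make up 75.3% of the DMSO B cell UMIs, 60.4% with the ErbB2 inhibitor, 39.5% with the FGFR inhibitor and 6.12% with the ERK inhibitor. It would leave 345, 461, 748 and 2222 UMIs per cell in that order. In the mouse the same estimate was 13.1% with PBS beads and 18.2% with FGF2/NRG1 beads. With a profile of interfollicular keratinocytes alone, the shares would be 60.5%, 46.8%, 30.8% and 4.21% in the spiny mouse libraries, in the order above. Ratios below are therefore given as counted and, where it matters, after subtracting the profile of the other cells. Some are also given with the interfollicular keratinocyte profile subtracted. Both alternatives were chosen after seeing the data. The plot of single cells shows the shares beside the marker UMIs.

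**Figure D1:**
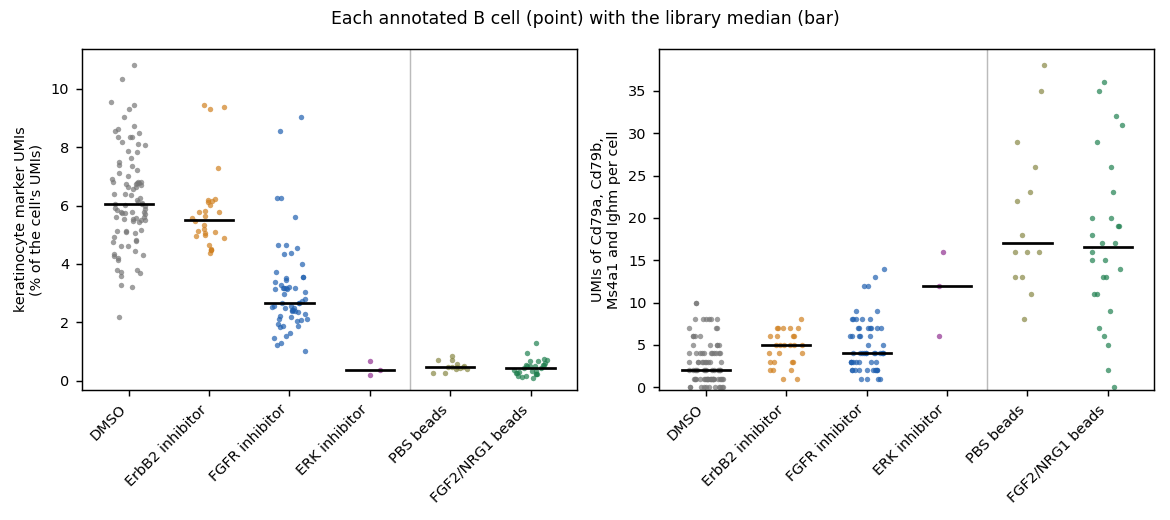
Each point is 1 annotated B cell and each bar the median of its library, with spiny mouse libraries left of the grey line. The left panel gives keratinocyte marker UMIs as a percent of the cell's UMIs, highest with DMSO (median 6.07%), and the right panel the summed UMIs of Cd79a, Cd79b, Ms4a1 and Ighm, which are lowest there.

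B cells were 0.592% (0.477 to 0.727) of the DMSO library by the Clopper-Pearson interval, 0.263% (0.175 to 0.38) of the ErbB2 inhibitor library and 1.23% (0.941 to 1.59) of the FGFR inhibitor library. On this denominator neither inhibitor's interval met that of DMSO, the ErbB2 inhibitor lying below it and the FGFR inhibitor above. With the ERK inhibitor the 3 cells were 0.475% (0.0982 to 1.38), an interval that spans the DMSO value. The bead libraries held 0.457% (0.25 to 0.765) and 0.549% (0.365 to 0.792), whose intervals overlapped widely. As a share of the cells annotated as blood lineages (B and T cells, macrophages, monocytes and dendritic cells), B cells were 7.32% (5.94 to 8.91) with DMSO, 4.96% (3.32 to 7.08) with the ErbB2 inhibitor and 14.4% (11.1 to 18.1) with the FGFR inhibitor. Shares depend on how many small, shallow cells pass the gene minimum, and the part of that in these differences was not tested. Requiring 2 UMIs of the 4 markers left 55 cells with DMSO, or 0.358% (0.27 to 0.466), 26 with the ErbB2 inhibitor, or 0.245% (0.16 to 0.358), and 55 with the FGFR inhibitor, or 1.15% (0.868 to 1.49). Under both of these alternatives the ErbB2 inhibitor's interval overlapped that of DMSO, and the FGFR inhibitor's lay above it.

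The immunoglobulin genes differed by species. Mouse B cells held Ighm, Ighd, Igkc and the lambda genes Iglc1, Iglc2 and Iglc3, all of which had 0 UMIs in every spiny mouse cell. Spiny mouse B cells instead held 3693 UMIs under Igll1, which had 0 UMIs in every mouse cell. In the mouse Igll1 (chromosome 16, 16860671 to 16863985, minus strand) encodes lambda 5, a part of the surrogate light chain of B cell precursors whose end resembles a lambda constant region. To show how alike these genes are where a 3′ library reads, the last 75 coding bases before the stop codon are given below from the mouse GENCODE vM21 transcripts on GRCm38. They are written 5′ to 3′, and capitals mark bases that differ from Igll1.
Igll1 (chr16:16860818-16860892, minus strand): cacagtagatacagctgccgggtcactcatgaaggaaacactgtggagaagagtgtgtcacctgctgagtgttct
Iglc1 (chr16:19061755-19061829, minus strand): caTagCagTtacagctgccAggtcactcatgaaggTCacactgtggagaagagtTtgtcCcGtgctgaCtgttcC
Iglc2 (chr16:19198539-19198613, minus strand): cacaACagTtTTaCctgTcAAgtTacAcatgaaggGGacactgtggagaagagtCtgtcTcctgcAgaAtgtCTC
Iglc3 (chr16:19065368-19065442, minus strand): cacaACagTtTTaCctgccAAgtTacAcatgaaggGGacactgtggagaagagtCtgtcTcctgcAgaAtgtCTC
Iglc1 shared 64 of the 75 bases with Igll1, Iglc3 shared 56 and Iglc2 shared 55. Aligned over the lambda constant region, Igll1 and Iglc1 were identical at 254 of 321 positions (79.1%), more than Iglc1 and Iglc2 (74.5%). Iglc2 and Iglc3 were identical at 96.5%, so reads could be split between that pair and their separate counts are uncertain. No spiny mouse sequence was used here, and which spiny mouse transcript stands under Igll1 cannot be told apart from these counts. The other genes that mark precursors alongside Igll1 were nearly empty: over all spiny mouse B cells Rag1 and Vpreb2 had 0 UMIs, Vpreb1 had 3 and Vpreb3 had 2.

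Igll1 was the most abundant of the listed B cell and stage genes in spiny mouse B cells. It gave 1385 UMIs with DMSO, 504 with the ErbB2 inhibitor, 1578 with the FGFR inhibitor and 226 with the ERK inhibitor. In CPM, the gene's UMIs scaled to the total of the cell type in that library, these were 10889.6 (10324 to 11479), 15460.1 (14139.7 to 16871), 21632 (20578 to 22726) and 31822 (27808 to 36252). As counted, these intervals did not meet, and the order was the reverse of that of the keratinocyte marker share. With the profile of the other cells subtracted, the Igll1 CPM were 43679 with DMSO, 38827 with the ErbB2 inhibitor and 35636 with the FGFR inhibitor, so the order of these 3 libraries turned round. With the interfollicular keratinocyte profile subtracted instead, log2 ratios over DMSO were 0.08 (ErbB2 inhibitor) and 0.19 (FGFR inhibitor), and the order did not turn round. Every DMSO B cell had between 1 and 62 Igll1 UMIs, with a median of 13, and FGFR inhibitor cells had 7 to 76 with a median of 27. T cells also carried Igll1, at 1646 CPM with DMSO, 2334 with the ErbB2 inhibitor, 3281 with the FGFR inhibitor and 3696 with the ERK inhibitor. The B cell level was 6.62, 6.62 and 6.59 times the T cell level in the first 3 of these and 8.61 times in the last. Igll1 UMIs per Cd79a UMI were 12.4 in B cells, 38 in T cells and 176 in suprabasal epidermis with DMSO, and 4.4 in resident macrophages. With the ERK inhibitor they were 18.8 in B cells and 14 in T cells. The source of the Igll1 UMIs in other cell types was not tested. The levels by cell type are plotted on a log axis.

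**Figure D2:**
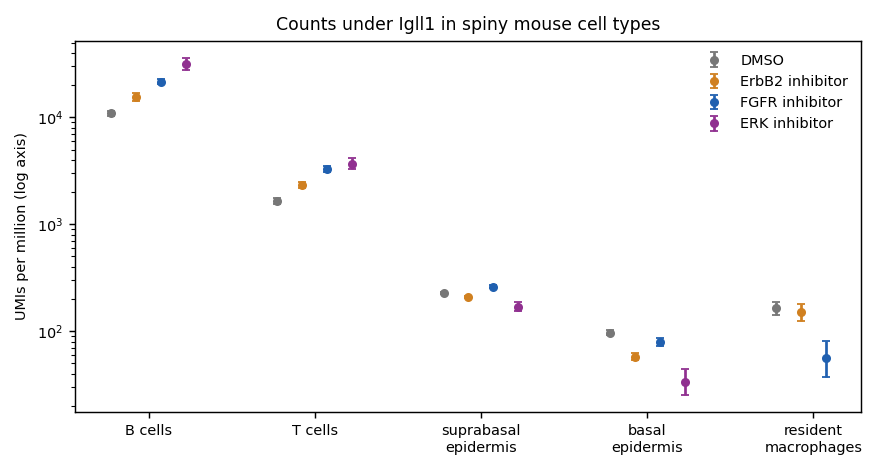
CPM of Igll1 in each cell type (log axis) in the 4 spiny mouse libraries, with 95% Poisson intervals as bars. B cells stand highest in every library, T cells next, and resident macrophages with the ERK inhibitor (33 cells, 0 UMIs) have no point.

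Among genes with at least 20 UMIs in B cells, the level in B cells was set against the highest level in any other annotated type of at least 15 cells. Cd79a, Cd79b, Ms4a1 and Fcmr, the receptor for secreted IgM (chromosome 1, 130865669 to 130880791), were among the 10 highest folds in all 5 libraries with at least 10 B cells, and Pax5 in 4. This describes cells that were clustered on such genes and is no test. With DMSO, Fcmr was 58.3 times the next type (T cells), Pax5 58 times and Ms4a1 39.9 times. Sirpb1c, a member of the SIRP family of immune receptors (chromosome 3, 15795145 to 15848528), stood among them in the 3 spiny mouse libraries with at least 10 B cells, and gave 264 UMIs with DMSO, 101 with the ErbB2 inhibitor, 280 with the FGFR inhibitor and 42 with the ERK inhibitor. In mouse B cells Sirpb1c had 0 UMIs in both libraries, while mouse cells annotated as circulating monocytes held 90 and 149. With PBS beads the leading genes were Iglc2, Ighd, the secretory-pathway gene Mzb1 and Igkc, at 623, 567, 378 and 337 times the next type. The Mzb1 value rests on 22 UMIs, and with FGF2/NRG1 beads Mzb1 was not among the 10 highest folds. There it had 22 UMIs in 28 B cells and 51 in 583 cells annotated as resident macrophages.

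Receptor partners came through in both species. Cd79a gave 112 UMIs with DMSO, 62 with the ErbB2 inhibitor, 146 with the FGFR inhibitor, 12 with the ERK inhibitor, 105 with PBS beads and 167 with FGF2/NRG1 beads. As levels in CPM, Cd79a was 881 (725 to 1059.6) with DMSO, 1902 (1458 to 2438) with the ErbB2 inhibitor, 2001 (1690.0 to 2354) with the FGFR inhibitor, 1689.7 (873 to 2952) with the ERK inhibitor, 2733 (2235 to 3308) with PBS beads and 2932 (2504 to 3412) with FGF2/NRG1 beads. Within the spiny mouse, DMSO was lowest as counted, and the 3 inhibitor libraries had overlapping intervals. Cd79b gave 109 UMIs with DMSO, 43 with the ErbB2 inhibitor, 96 with the FGFR inhibitor, 13 with the ERK inhibitor, 83 with PBS beads and 127 with FGF2/NRG1 beads. Ms4a1 gave 44 UMIs with DMSO, 24 with the ErbB2 inhibitor, 52 with the FGFR inhibitor, 9 with the ERK inhibitor, 38 with PBS beads and 55 with FGF2/NRG1 beads. Cd79b and Ms4a1 levels were again lowest with DMSO as counted. With the profile of the other cells subtracted, Cd79a CPM were 3559 with DMSO, 4799 with the ErbB2 inhibitor and 3306 with the FGFR inhibitor. Cd79b CPM were then 3469.9 with DMSO, 3329 with the ErbB2 inhibitor and 2174 with the FGFR inhibitor, and Ms4a1 CPM 1400.5 with DMSO, 1858 with the ErbB2 inhibitor and 1178 with the FGFR inhibitor. DMSO was thus not the lowest of these 3 libraries for any of the 3 genes after that subtraction. With the interfollicular keratinocyte profile subtracted instead, log2 ratios over DMSO were 0.69 (ErbB2 inhibitor) and 0.37 (FGFR inhibitor) for Cd79a. They were then 0.69 and 0.23 for Ms4a1 and 0.21 and -0.19 for Cd79b, so DMSO was again lowest for Cd79a and Ms4a1. The plot of levels by library shows DMSO lowest as counted for Pax5 and Cd74 too.

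**Figure D3:**
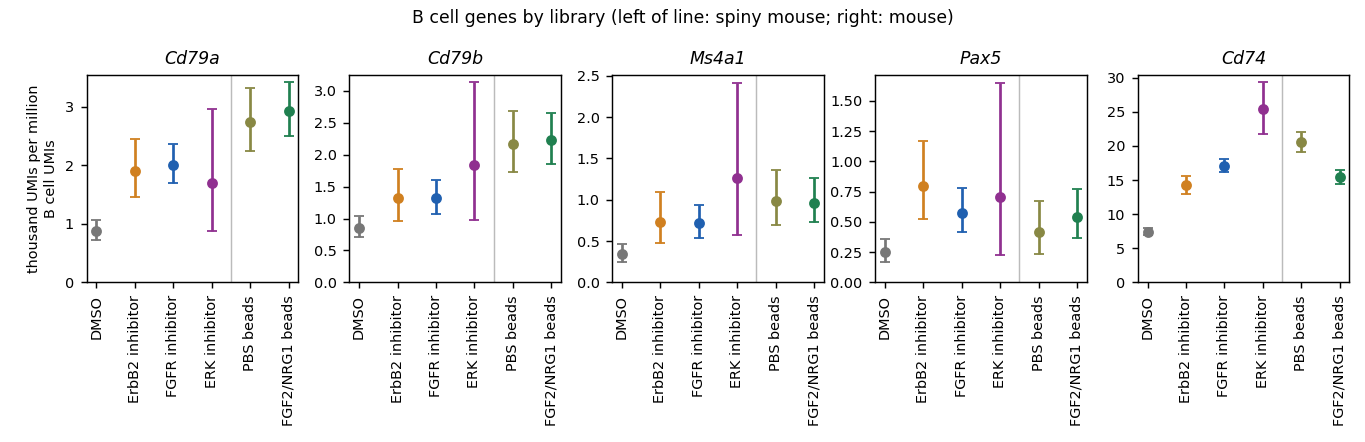
CPM divided by 1000 of 5 B cell genes in each library, with 95% Poisson intervals as bars and the grey line between species. As counted, DMSO is the lowest spiny mouse library for every gene shown, and the 2 bead libraries have overlapping intervals for 4 of the 5 genes, all but Cd74.

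Over 8 lists of B cell genes (97 genes in the table), 78 had a UMI in spiny mouse B cells and 93 in mouse B cells, although the mouse cells were fewer. In the spiny mouse 12 of the 97 had 0 UMIs in any cell type, among them the kinase Blk, the factor Spib and the MHC class II chain H2-Eb1. Of the signalling genes, the kinase Lyn had 100 UMIs in the spiny mouse and 22 in the mouse, and the adaptor Bank1 had 48 and 45. Of the inhibitory receptors and relatives, Fcrla led in the spiny mouse (118 UMIs) and Siglecg, a sialic acid receptor that damps signalling, in the mouse (48 UMIs). Lineage factors were led in both by Ebf1 (255 and 130 UMIs), followed by Mef2c and Pax5 in the spiny mouse and by Mef2c and Pou2f2 in the mouse. Antigen presentation was led by Cd74 and H2-Aa in both. H2-Ab1, the partner chain of H2-Aa, had 210 UMIs in mouse B cells and 1 in spiny mouse B cells, where only 146 were counted over all cells.

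Genes of circulating and tissue homing were sparse apart from Klf2, a factor of resting lymphocytes, with 172 UMIs with DMSO, 68 with the ErbB2 inhibitor, 105 with the FGFR inhibitor, 13 with the ERK inhibitor, 36 with PBS beads and 71 with FGF2/NRG1 beads. Ltb, the lymphotoxin that lymphocytes use to shape lymphoid tissue, gave 49 UMIs with DMSO, 32 with the ErbB2 inhibitor, 54 with the FGFR inhibitor, 8 with the ERK inhibitor, 46 with PBS beads and 60 with FGF2/NRG1 beads. The survival receptors Tnfrsf13c and Tnfrsf13b had 14 and 18 UMIs in mouse B cells and 1 each in the spiny mouse, where the whole data held 2 and 3. Genes of other B cell stages differed by list. The germinal centre list summed to between 52.7 and 282 CPM, the highest value resting on 2 UMIs, and its factor Bcl6 had 1 UMI in each species. The B1 and memory list summed to 2178 CPM with DMSO, 1687 with the ErbB2 inhibitor, 2234 with the FGFR inhibitor and 4083 with the ERK inhibitor, and to 495 and 614 with PBS and FGF2/NRG1 beads. S100a6, which skin cells express widely, gave 266 of that list's 277 UMIs with DMSO. The follicular and marginal zone list summed to 1407 CPM with DMSO, 736 with the ErbB2 inhibitor, 959.6 with the FGFR inhibitor and 141 with the ERK inhibitor, and to 3566 and 2475 with PBS and FGF2/NRG1 beads. Cd9, a surface protein of many skin cells, gave 171 of that list's 179 UMIs with DMSO. With PBS beads all 8 genes of the list were detected, Ighd, Cd55, Mzb1 and Fcer2a leading with 61, 23, 22 and 16 UMIs. Among plasma cell genes Jchain had 1 UMI in the spiny mouse and 0 in the mouse, and Prdm1 the same, whereas Mzb1, which plasma and marginal zone B cells share, had 2 UMIs in the spiny mouse and 44 in the mouse. The heavy chain Igha had 0 in mouse B cells, and Tnfrsf17 had 0 in both. Sdc1, which keratinocytes also express, had 44 UMIs with DMSO and 9 with the FGFR inhibitor. Vpreb3, which mature B cells keep at a low level, had 27 UMIs in the mouse. The cell cycle list summed to 1839.8 CPM with DMSO, 951 with the ErbB2 inhibitor, 1001 with the FGFR inhibitor and 563 with the ERK inhibitor, and to 625 and 843 with PBS and FGF2/NRG1 beads. With DMSO 18 of its 19 genes had a UMI, and Hmgb2, Stmn1 and Tubb5, which skin cells also express, gave 73, 37 and 36 of 234 UMIs. Mki67, a marker of cycling cells, had 8 UMIs over the spiny mouse and 1 over the mouse B cells. The part of keratinocyte RNA in these list sums was not tested.

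Markers of other blood cells were low or at 0 for T cells, macrophages and dendritic cells, and higher for neutrophils. The 14 T and NK cell genes summed to 55 CPM with DMSO and at most 130.1 in any library, and Gata3, which keratinocytes and other skin cells share, gave 5 UMIs with DMSO and 4 with PBS beads. Cd3d, Nkg7 and Cd8a were at 0 in all B cells. Macrophage and monocyte genes summed to 0 to 123 CPM, with C1qa, C1qb, Cd14 and Mrc1 at 0 throughout. Dendritic cell genes reached 23.6 CPM at most. The plasmacytoid dendritic cell list summed to 2655 and 2177 CPM in the mouse, where Ly6d, which B cells and keratinocytes also express, gave 91 and 90 UMIs. Its defining gene Siglech had 0 UMIs with PBS beads and 3 with FGF2/NRG1 beads. The 8 neutrophil genes summed to 833 CPM with DMSO, 460.1 with the ErbB2 inhibitor, 329 with the FGFR inhibitor and 986 with the ERK inhibitor, and to 52.1 and 87.8 with PBS and FGF2/NRG1 beads. S100a8 and S100a9, which keratinocytes of wounds also express, gave 60 and 30 of the 106 UMIs with DMSO, and Cxcr2 and Retnlg were at 0 in all B cells. Mast cell genes summed to 165 CPM with DMSO, 184 with the ErbB2 inhibitor, 54.8 with the FGFR inhibitor and 0 with the ERK inhibitor, and to 0 and 0 with PBS and FGF2/NRG1 beads. The proteases Tpsb2 and Mcpt4 gave 11 and 8 of the 21 mast cell UMIs with DMSO, and Cpa3, Kit and Fcer1a were at 0. Fibroblast genes summed to 747 CPM with DMSO, 276 with the ErbB2 inhibitor, 644 with the FGFR inhibitor and 0 with the ERK inhibitor, and to 234 and 298 with PBS and FGF2/NRG1 beads. The source of these transcripts was not tested. Haemoglobin genes summed to 704 to 2001 CPM.

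Single cells were compared as the share with at least 1 UMI, and again after thinning each cell to 1000 UMIs, which left out 22 cells with DMSO, 3 and 16 with the ErbB2 and FGFR inhibitors, 0 with the ERK inhibitor, and 0 and 2 in the bead libraries. Cd79a was found in 56 of 91 cells with DMSO, 26 of 28 with the ErbB2 inhibitor, 51 of 59 with the FGFR inhibitor, 14 of 14 with PBS beads and 26 of 28 with FGF2/NRG1 beads. Thinned, the shares were 47.8%, 92%, 83.7%, 85.7% and 88.5%, DMSO being the lowest at equal total UMIs, which leaves the unequal keratinocyte share in place. Other types had it less often. T cells (median 1399.5 UMIs with DMSO) had Cd79a in 6.93% of cells and basal epidermis (median 3313) in 0.769%. Cd79b was in 55 of 91 DMSO B cells and in 0 of 332 DMSO T cells. Pax5 was in 23 of 91 cells with DMSO, 17 of 28 with the ErbB2 inhibitor and 31 of 59 with the FGFR inhibitor, and thinned in 14.5%, 64% and 41.9%. Cd74 was in every B cell except 1 with FGF2/NRG1 beads, against 25.9% of T cells and 21.7% of basal epidermal cells with DMSO. Ltb, a gene the lymphocytes shared, was in 59.3% of B and 58.2% of T cells with the FGFR inhibitor, at median depths of 1124 and 2080 UMIs. Thinned, it was in 62.8% and 45.4%.

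The ErbB2 inhibitor blocks a receptor that works as the partner of the NRG1 receptors, and its library was set against DMSO. Of 1174 genes with at least 20 UMIs over both libraries, 91 (7.75%) were at least 2-fold higher and 67 (5.71%) at least 2-fold lower, and for 12.6% the interval of the ratio left out 0. B cell genes lay on the higher side as counted. Of 22 compared genes of the 8 B cell lists, 9 were at least 2-fold higher and 0 lower, with a median log2 ratio of 0.86 against 0.08 over all compared genes. Pax5 had 26 against 32 UMIs, a log2 ratio of 1.67 (0.86 to 2.46). Mef2c, a factor downstream of the B cell receptor, had 32 against 43 UMIs, a ratio of 1.55 (0.83 to 2.23). Lyn (log2 1.40, interval 0.53 to 2.20), Ltb (log2 1.36, interval 0.66 to 2.02), Cd79a (log2 1.12, interval 0.64 to 1.57) and Ms4a1 (log2 1.12, interval 0.31 to 1.84) were higher too. Ebf1, in contrast, had 0.34 (-0.27 to 0.87) and Igll1 0.51 (0.36 to 0.65).

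With the profile of the other cells subtracted, 21 of these genes kept at least 20 UMIs and 0 were 2-fold higher, with a median of 0.28. Pax5 was then at 0.99, Mef2c at 0.89, Cd79a at 0.44 and Cd79b at -0.04. With the interfollicular keratinocyte profile subtracted, Pax5 was at 1.24, Mef2c at 1.12 and Bank1 at 1.09, still past 2-fold. Cd79a was then at 0.69 and Cd79b at 0.21, under 2-fold. Scaled instead to the summed UMIs of 7 B lineage genes, which moves the median of all genes to -0.81, Pax5 was at 0.78 and Mef2c at 0.65. Among the 8 highest ratios were Jmjd1c, a histone demethylase family gene (13 against 7 UMIs, log2 2.77, interval 1.43 to 4.42), and Orai1, the pore of the store-operated calcium channel (12 against 11 UMIs, log2 2.08, interval 0.78 to 3.41). Fermt3, the integrin activator of blood cells, followed (12 against 12 UMIs, log2 1.96, interval 0.68 to 3.25), with Prpf6, Rpf1, Zfand2b, Spcs2 and Rfc1 at 1.72 to 1.96. Each of the 8 rests on 10 to 15 UMIs with the inhibitor. With the profile of the other cells subtracted, Fermt3 was at 1.36 and Rfc1 at 1.55, and the rest of the 8 fell under the minimum. Of the 8, 3 were more abundant in the other DMSO cells than in DMSO B cells. Of the 8 lowest ratios, 4 were hair follicle or skin genes. Krt25 and Krt71, inner root sheath keratins, had 0 against 73 and 31 UMIs, with intervals of the log2 ratio that end at -2.31 and -1.02. Tchh, the trichohyalin of the same sheath, had 0 against 57, and Krt15, a basal keratin, 3 against 101 UMIs. In the other DMSO cells Krt25, Tchh, Krt71 and Krt15 stood at 644, 573, 345 and 1102 CPM, all above their level in the DMSO B cells. In the other ErbB2 inhibitor cells they stood at 6.53, 11.9, 1.89 and 733 CPM, lower than with DMSO as in the B cells. Cuta, Stmn2, Dpy30 and Ppa2 completed the 8, each with 0 UMIs against 20 to 31. The part of keratinocyte RNA in this comparison was not tested.

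The FGFR inhibitor gave the larger B cell sample. Of 1493 genes compared, 130 (8.71%) were at least 2-fold higher than with DMSO and 87 (5.83%) lower, and for 18.8% the interval of the ratio left out 0. The comparison shares its DMSO cells with the preceding one. Of 34 compared B cell list genes, 18 were 2-fold higher as counted and 1 lower, with a median of 1.02 against 0.01 over all genes. Antigen presentation counted 5 of 7 higher (median 1.22), with Cd74 at 1246 against 945 UMIs and 1.20 (1.08 to 1.32), and H2-DMa, which loads peptides, at 1.37 (0.69 to 2.10). Lineage factors counted 5 of 8 higher and 1 lower, with Pax5 at 1.18 (0.50 to 1.91). Inhibitory receptors counted 3 of 5, with Cd72 at 21 against 11 UMIs and 1.68 (0.62 to 2.93). Ccr7, which guides lymphocytes to lymph nodes, had 14 against 7 UMIs and 1.71 (0.40 to 3.35), and Cd40, the receptor for T cell help, 1.22 (0.27 to 2.23).

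After subtraction of the other cells' profile 0 of 28 B cell list genes were 2-fold higher and 3 lower, with a median of -0.24, and all compared genes had a median of -0.25. Cd79a moved from 1.18 to -0.11, Ms4a1 from 1.04 to -0.25, Pax5 from 1.18 to -0.11 and Cd74 from 1.20 to -0.05. With the interfollicular keratinocyte profile subtracted instead, these genes were at 0.37, 0.23, 0.37 and 0.40, under 2-fold but with their sign kept. These directions thus depend on how the keratinocyte share is handled. Of the genes plotted, Cd69 and Id3 were 2-fold different as counted, after subtraction of the other cells' profile and scaled to B lineage genes. Cd69, an early activation marker that holds lymphocytes in tissue, had 24 against 5 UMIs, in 16 of 59 against 5 of 91 cells, a log2 ratio of 2.86 (1.65 to 4.81) as counted, 1.61 after subtraction and 1.95 scaled to B lineage genes. Id3, an inhibitor of E proteins, had 8 against 37 UMIs, a ratio of -1.28 (-2.72 to -0.28), then -2.79 and -2.19. With each cell thinned to 1000 UMIs Id3 was at -0.76, under 2-fold. Id3 is also abundant in skin cells, at 159.6 CPM in the other DMSO cells. T cells had Cd69 in 20.9% of cells with the FGFR inhibitor and 11.1% with DMSO, at median depths of 2080 and 1399.5 UMIs. Thinned, the B cell shares were 25.6% and 4.35%, and the T cell shares 9.26% and 6.34%, the latter with overlapping intervals. With the ErbB2 inhibitor Cd69 had 1 UMI and Id3 13, the latter at 0.52 (-0.58 to 1.40).

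Below Cd69 the highest ratios with the FGFR inhibitor were Grk6, a kinase that turns off chemokine receptors (24 against 8 UMIs, log2 2.28, interval 1.18 to 3.75), the Hippo kinase Stk4 (log2 2.22, interval 0.85 to 4.20), the adaptor Grb2 (20 against 7 UMIs, log2 2.19, interval 1.02 to 3.80) and Arhgef1 (log2 2.12, interval 0.93 to 3.74). After subtraction Grk6 was at 1.58, Grb2 at 1.41, Arhgef1 at 1.65 and Herpud1 at 1.85, and scaled to B lineage genes at 1.36, 1.28, 1.21 and 1.21, so these 4 also stayed past 2-fold in both. Herpud1, a gene of the endoplasmic reticulum stress response, had 29 against 11 UMIs, Tomm70a 15 against 6 UMIs and Dipk1a 14 against 6 UMIs. The lowest were Tppp3 (0 against 20 UMIs, interval of the log2 ratio ending at -1.50), Krt25 (4 against 73 UMIs), Amd1, St3gal5, Krt71, Grina and the junction genes Jup and Ppl. Of these 8, 5 were more abundant in the other DMSO cells than in DMSO B cells. Keratinocyte markers themselves were lower, with Krt10 at 718 against 2499 UMIs and Krt5 at -1.11 (-1.32 to -0.91). Ifitm3, an interferon-induced gene that skin cells express widely, was at -1.28 (-1.65 to -0.95), and fell under the minimum after subtraction. The part of keratinocyte RNA in these lower genes was not tested.

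**Figure D4:**
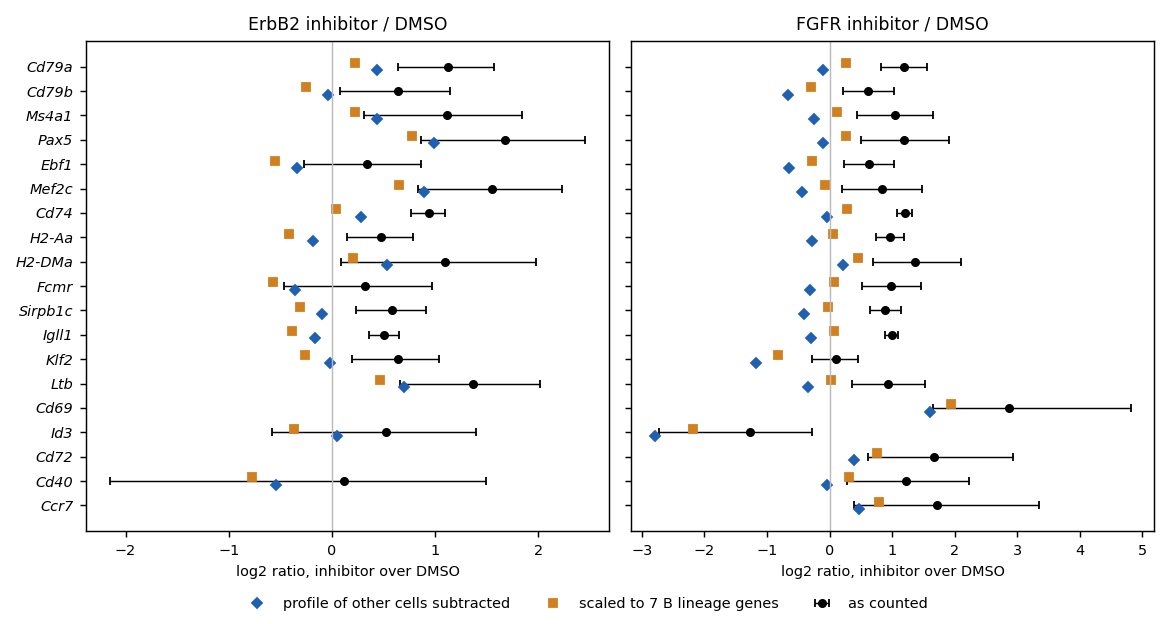
Log2 ratios of inhibitor over DMSO for B cell genes, as counted with 95% intervals (black circles), with the profile of other cells subtracted (blue diamonds) and scaled to 7 B lineage genes (orange squares). With the FGFR inhibitor only Cd69 and Id3 of these genes lie beyond 1 or -1 in all 3, and genes with fewer than 20 UMIs have no point.

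With the ERK inhibitor only 3 B cells were annotated, and no ratio was taken. They had 2981, 2111 and 2010 UMIs. All held Cd79a (6, 5 and 1 UMIs), Cd79b (4, 6 and 3), Ms4a1 (2, 5 and 2) and Pax5 (2, 2 and 1), and none held Ighm. Cd74 was at 53, 49 and 78 and Igll1 at 128, 55 and 43. One of the cells differed: it held all 5 Cd69 and all 11 Dusp2 UMIs of the library's B cells and 4 of 5 Jun UMIs. Dusp2, a phosphatase induced when lymphocytes are activated, was singled out after its values were seen. In the DMSO B cells Dusp2 had 4 UMIs in 4 of 91 cells. Of the 14 ERK feedback and target genes, 8 had a UMI among the 127185 UMIs of DMSO B cells. Among the 7102 UMIs of these 3 cells, 1 of the genes did. The genes summed to 307 CPM (218 to 419) in B cells with DMSO and 123 (33.4 to 314) with the ErbB2 inhibitor. With the FGFR inhibitor they summed to 192 (105 to 322) and with the ERK inhibitor to 141 (3.56 to 785), the last on 1 UMI. Every inhibitor interval overlapped that of DMSO. Skin cells express these genes too, and their part in the sums was not tested.

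The mouse libraries compare wounds given FGF2 and NRG1 with wounds given PBS. Of 595 genes compared in B cells, 29 (4.87%) were at least 2-fold higher with FGF2/NRG1 and 20 (3.36%) lower, and for 9.41% the interval of the ratio left out 0. B cell genes showed little difference. Of 40 compared list genes 2 were higher and 1 lower, with a median of 0.03 against 0.02 over all genes. Cd79a was at 0.10 (-0.26 to 0.47), Cd79b at 0.04 (-0.36 to 0.46), Ms4a1 at -0.05 (-0.66 to 0.60) and Pax5 at 0.34 (-0.53 to 1.36), intervals that all span 0 and reach at most 1.36. Cd74 was lower at -0.42 (-0.56 to -0.28), with 877 against 789 UMIs. Irf8, a factor shared by B cells and myeloid cells, had 13 against 20 UMIs and -1.15 (-2.32 to -0.11). Keratinocyte markers were 0.402% to 0.502% of UMIs in both, and after subtraction Cd74 stood at -0.34 and Irf8 at -1.12. The highest ratios were Bod1l (20 against 1 UMIs, log2 2.82, interval 1.11 to 9.13), Iglc1, Atp5o, Kmt2a, Tut7, Sub1, Xrn2 and Tle5, from 1.34 to 1.98 apart from Bod1l. At the other end stood Lars2 (6 against 19 UMIs, log2 -2.08, interval -3.84 to -0.85), Gm30211, Krt2, Arhgef1 (log2 -1.47, interval -2.56 to -0.53), March1, Gm31243, Swap70, which acts in B cell migration (log2 -1.23, interval -2.51 to -0.12), and Gm42418 (636 against 1007 UMIs, log2 -1.23, interval -1.38 to -1.09). Gm42418 was also lower in the other cells, at 6572 CPM with FGF2/NRG1 against 21750 with PBS. The same held there for Lars2 (172 against 272 CPM) and Krt2 (960 against 1397 CPM). Arhgef1, March1, Swap70, Gm30211 and Gm31243 were not lower in the other cells.

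Immunoglobulin genes differed between the bead libraries, in both directions. Ighm was at 0.58 (0.14 to 1.07) with 130 against 58 UMIs, while Ighd, the IgD chain of resting B cells, was at -0.33 (-0.84 to 0.19) with 72 against 61 UMIs. Both chains were found together in 12 of 14 PBS and 22 of 28 FGF2/NRG1 cells. Igkc was at -0.56 (-0.76 to -0.36) with 401 against 399 UMIs, and Iglc1 at 1.98 (1.19 to 3.09) with 75 against 12 UMIs. Iglc2 (log2 0.46, interval 0.04 to 0.92) and Iglc3 (log2 -0.65, interval -1.23 to -0.07) went in opposite directions, and are the pair whose reads could be split. The Iglc1 difference came from few cells: 4 FGF2/NRG1 cells with at least 10 Iglc1 UMIs held 70 of the 75, and no PBS cell had more than 4.

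Counted cell by cell, Igkc UMIs exceeded the lambda sum in all 14 PBS cells and in 19 of 28 FGF2/NRG1 cells. Igkc ran from 5 to 81 UMIs per PBS cell with a median of 27, and from 0 to 36 with a median of 13 in FGF2/NRG1 cells. The lambda genes together ran from 2 to 21 (median 8) and from 0 to 38 (median 6). Lambda counts appeared beside Igkc in every PBS cell, and 23 FGF2/NRG1 cells held both. 2 FGF2/NRG1 cells had 0 Igkc UMIs and 27 and 38 lambda UMIs, and in 7 cells lambda exceeded Igkc. The 2 deepest FGF2/NRG1 cells (4419 and 4089 UMIs) held 31 and 36 Igkc UMIs together with 29 and 37 lambda UMIs. Doublets were not called, and their part in such cells was not tested. In 3 FGF2/NRG1 cells fewer than 5 immunoglobulin UMIs were found, and 1 of these had none and 27 Cd74 UMIs. Outside B cells Igkc was rare, found in 2.78% and 2.21% of T cells in the PBS and FGF2/NRG1 libraries and 0 of 377 and 330 basal epidermal cells. Ighm was more widespread: cells annotated as resident macrophages held 92 and 498 Ighm UMIs beside 22 and 44 of Igkc, that is 4.18 and 11.3 Ighm per Igkc UMI, against 0.145 and 0.324 in B cells. Only 21.2% of mouse Ighm UMIs lay in annotated B cells, against 88.4% of Igkc UMIs.

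**Figure D5:**
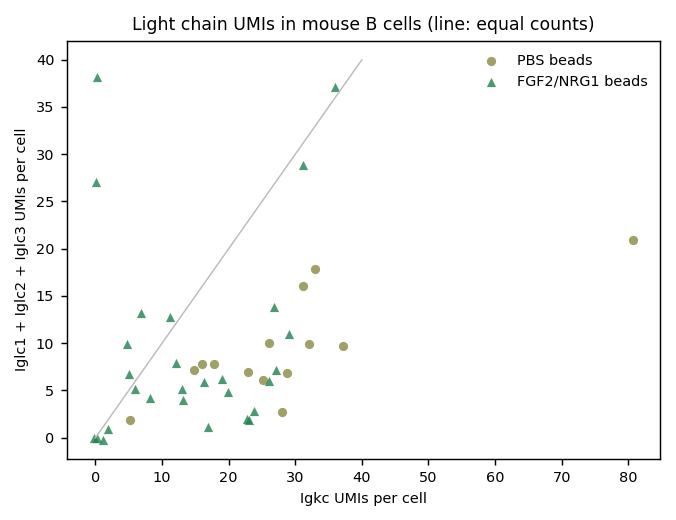
Igkc UMIs (x axis) against summed Iglc1, Iglc2 and Iglc3 UMIs (y axis) in each mouse B cell, with points shifted slightly so that equal cells can be seen and a grey line at equal counts. All 14 PBS cells lie below the line, and 2 FGF2/NRG1 cells stand high on the lambda axis at 0 Igkc.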

How the data were processed

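UMI counts per gene and cell for 20381 genes, and a second table with each cell's library, cluster, cell type, UMI count, gene count and mitochondrial, haemoglobin and ribosomal percent, were used as the authors deposited them, per the file headers. Per the labels' protocols, cells were released with a bacterial protease and libraries made with 10x Genomics 3′ reagents. Cell Ranger 6.1.1 and the build GRCm38 (mm10) are named in the submitters' processing notes. The reference for spiny mouse reads, the filters on cells and any removal of doublets or free RNA were not given in the sources used here.

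Libraries were assigned by treatment label, 1 per group. Counts of annotated B cells were summed per library and divided by all their UMIs (CPM). Log2 ratios set the treated against the control CPM with a pseudocount of 1 UMI, over genes with at least 20 UMIs in both libraries together, called from 2-fold, with exact conditional binomial intervals. Levels have exact Poisson intervals and shares Clopper-Pearson ones. Depth is given with the results, and the smallest sums give the widest intervals. Named genes were the 4 markers, up to 6 members per list, the 10 most B cell specific genes, and the 8 highest and 8 lowest ratios whose interval leaves out 0. The members and the 29 gene lists were chosen with earlier results of these data known. Profile subtraction takes the summed profile of all other cells of the library in the proportion that brings the 12 keratinocyte markers to 0 in sum. The ratio script was tested on simulated data, and no doublet caller was run. Alternatives were another pseudocount, minimum, fold, thinning, subset of cells and scaling; the profile subtractions and the B lineage scaling were added after seeing the data. Python 3.11.15, numpy 2.4.6 and scipy 1.17.1 were used.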

Additional observations from a re-analysis of the deposited data

How the results depend on the processing

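The profile subtractions and the B lineage scaling were chosen after seeing the data. Counts of genes past 2-fold moved by more than 1.5 times with the minimum count and the fold, which change how many genes can be called. With a minimum of 1 UMI there were 2216 higher and 303 lower for the ErbB2 inhibitor, 1958 higher and 804 lower for the FGFR inhibitor, 1292 higher and 1929 lower for FGF2/NRG1. With a minimum of 50 there were 15 higher and 22 lower for the ErbB2 inhibitor, 23 higher and 30 lower for the FGFR inhibitor, 2 higher and 1 lower for FGF2/NRG1. From 1.5-fold there were 248 higher and 158 lower for the ErbB2 inhibitor, 273 higher and 237 lower for the FGFR inhibitor, 88 higher and 58 lower for FGF2/NRG1. Thinning and subtraction also left fewer genes to compare. With each cell thinned to 1000 UMIs there were 40 higher and 46 lower of 665 for the ErbB2 inhibitor. For the FGFR inhibitor there were 56 higher and 66 lower of 813, and for FGF2/NRG1 10 higher and 7 lower of 216. With the profile of all other cells subtracted there were 20 higher (5.70%) and 39 lower (11.1%) of 351 for the ErbB2 inhibitor. For the FGFR inhibitor there were then 45 higher (7.84%) and 80 lower (13.9%) of 574. With an interfollicular keratinocyte profile subtracted instead there were 43 higher (8.46%) and 50 lower (9.84%) of 508 for the ErbB2 inhibitor. For the FGFR inhibitor there were 42 higher (5.33%) and 79 lower (10.0%) of 788. Scaled to 7 B lineage genes there were 5 higher and 456 lower for the ErbB2 inhibitor, 7 higher and 649 lower for the FGFR inhibitor. That last scaling moved the median of all genes to -0.81, -0.90 and -0.11 in the same order of comparisons, and with 1 UMI as the minimum the ErbB2 inhibitor's median was 0.74. The higher genes were 57.6% of the calls for the ErbB2 inhibitor and 59.9% for the FGFR inhibitor as reported. They were 46.5% and 45.9% with thinned cells, and 46.2% and 34.7% with the keratinocyte profile subtracted. The shares were 33.9% and 36% after subtraction of the other cells' profile. Only a small set of genes was followed through all alternatives. In that set, the called ratios that changed sign were those of Cd79a (-0.11), Ms4a1 (-0.255), Cd74 (-0.0488), Pax5 (-0.109) with the FGFR inhibitor after that subtraction. By its construction the subtraction takes away the share set by the keratinocyte markers. Outside the set, called list genes such as Cd40 (1.22 to -0.04) and Lyn (1.04 to -0.21) changed sign there too. Others, such as Ccr7 (1.71 to 0.47) and Cd72 (1.68 to 0.38), did not. With the interfollicular keratinocyte profile subtracted, Cd79a, Ms4a1, Cd74, Pax5, Cd40 and Lyn all kept their sign with the FGFR inhibitor. With blood-lineage cells as the denominator the B cell share was 7.32% (DMSO), 4.96% (ErbB2 inhibitor), 14.4% (FGFR inhibitor), 2.38% (ERK inhibitor), 2.91% (PBS beads), 2.01% (FGF2/NRG1 beads). Requiring 2 marker UMIs gave 0.358% (DMSO) of all cells. The share of B cells with a marker UMI was 75.4% for DMSO (thinned), 60.4% for DMSO (at least 2 UMIs), 93.2% for FGFR inhibitor (at least 2 UMIs). Of the ratios of the followed genes under all alternatives, 336 stayed inside the counting interval, 60 left it and 4 reversed. No paired analysis was possible because each group was 1 library. Depth limits every value here: 0 UMIs in the ERK inhibitor B cells allow up to 519 CPM by the Poisson limit.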
